A study of Bos taurus with 4 samples.

Results

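The genes of the nuclear pore and of nuclear transport were followed in bovine (Bos taurus) embryos of 8 to 16 cells, collected on day 3 after insemination. They were taken by symbol: the numbered nucleoporins (NUP), the importin alpha and importin beta families (KPNA, KPNB, IPO, TNPO), the exportins (XPO, CSE1L), the mRNA export receptors (NXF, NXT), the RANBP genes, and RAN, RANGAP1, RCC1, RAE1, SEH1L, SEC13, AAAS, NUTF2 and TPR. This gave 56 genes, each with 1 transcript row, among 14002 genes with a symbol. Polyadenylated RNA had been sequenced from 4 libraries, and expression is given as FPKM, fragments scaled to transcript length and to library size. Zygotes of the 2 control libraries (NC) had received negative control small interfering RNAs (siRNAs), and those of the 2 knockdown libraries (KDM5_KD) had received siRNAs against KDM5A, KDM5B and KDM5C, which encode demethylases of lysine 4 on histone H3. The title of the second knockdown library names Kdm5, but its treatment entry names siRNAs against KDM6A, KDM6B and a KDM6C, so each result that rests on it is open to that doubt. The labels do not say how many embryos went into a library or whether the libraries came from separate cultures, so the p-values below measure only the spread between these libraries, which may be technical. All embryos were injected, controls included.

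A nuclear pore is built from many copies of nucleoporins: an inner ring, outer rings made of the Y complex, a central channel lined by proteins with phenylalanine-glycine repeats, filaments on the cytoplasmic side and a basket on the nuclear side. Importin beta proteins carry cargo inwards, either directly or through an importin alpha adaptor that reads the classical nuclear localization signal, and exportins carry cargo outwards. Direction comes from the small GTPase Ran, which is kept in its GTP form in the nucleus by the exchange factor RCC1 and in its GDP form in the cytoplasm by RANGAP1 with RANBP1 or RANBP2. Most mRNA leaves through the NXF1-NXT1 receptor without direct use of Ran. In cattle KPNA7 is known as an importin alpha of oocytes and early cleavage embryos.

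The siRNA targets were checked first. Here and below, a log2 fold change is the KDM5_KD minus the NC mean of log2(FPKM + 1), with its standard error (SE), and p-values come from 1 limma fit of all transcripts with a mean of at least 1 FPKM, adjusted over all of them, with a threshold of 0.05. KDM5A was at 28.4 and 27.1 FPKM in the controls and 10.5 and 10.1 FPKM in the knockdown, with a log2 fold change of -1.35 (SE 0.142, adjusted p in limma of 0.0333). KDM5A missed the threshold with no filter on low values (adjusted p in limma of 0.167), with no variance trend (0.0605), with the replicate number as a block (0.0591), and without NC replicate 2 (0.0625), KDM5_KD replicate 1 (0.179) or KDM5_KD replicate 2 (0.232), at log2 fold changes from -1.38 to -1.33. KDM5C was at 28.1 and 40.6 FPKM in the controls and 15.1 and 17.8 FPKM in the knockdown, with a log2 fold change of -0.999 (SE 0.208, adjusted p in limma of 0.123). KDM6A was at 7.63 and 11.3 FPKM in the controls and 7.90 and 9.29 FPKM in the knockdown, so its groups overlapped. KDM5B and KDM6B were not analysed here. FPKM summed to between 283347 and 322267 per library, and read depth is unknown. The embryo marker genes KLF4, KLF5, TFAP2C, POU5F1 and NANOG (5 of 9 listed) lay between 35.0 and 606 FPKM in every library. Their sum was 906 and 861 FPKM in the controls and 818 and 714 FPKM in the knockdown. KLF4 was the largest part of this sum, at 606 and 517 FPKM in the controls and 507 and 422 FPKM in the knockdown. Of the 5, 4 had a negative log2 fold change (median -0.15), and 3 lay below both controls in both knockdown libraries. Below both controls lay 15.6% of all transcripts. With all transcripts divided into 4 equal groups by level, the 5 markers fell in the highest. In that group 24.5% of transcripts lay below both controls and 46.6% were positive. Summed over 14 rows of 12 of the 14 listed oocyte and maternal-store markers, the level was 596 and 443 FPKM in the controls and 706 and 909 FPKM in the knockdown. All 14 rows had a positive log2 fold change, against 62.6% of all transcripts tested, and for 8 both knockdown libraries lay above both controls, against 35.1% of all. Over the 14 cumulus and granulosa cell markers the sum was 55.4 and 43.9 FPKM in the controls and 114 and 89.0 FPKM in the knockdown. COL1A1 was the largest entry in every library, at 28.4 and 23.9 FPKM in the controls and 47.7 and 35.8 FPKM in the knockdown. LUM was at 4.02 and 5.12 FPKM and at 23.8 and 15.6 FPKM. Of the 10 markers of this list that were tested, 9 had a positive log2 fold change and 8 lay above both controls in both knockdown libraries. The negative one was TNFAIP6 (-0.05). Of all transcripts tested, 62.6% were positive and 35.1% lay above both controls. In the lowest level group, which holds several of these markers, the shares were 76.1% and 48.0%. FSHR and LHCGR were listed at 0 in both NC libraries, and their highest level in KDM5_KD was 0.044 FPKM. The means of CYP19A1 and PTX3 over the 4 libraries were 0.0332 and 0.175 FPKM. In these whole-embryo libraries, fewer cells of a type and less RNA per cell cannot be told apart.

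Of the 56 genes, 55 had a mean of at least 1 FPKM over the 4 libraries and were tested. The 1 left out was NUP210, a membrane-spanning nucleoporin, at 0.138 and 0.0668 FPKM in the controls and 0.0899 and 0.185 FPKM in the knockdown. The median level of the 55 was 32.0 FPKM, against 10.5 FPKM for all 8970 transcripts tested, and 28 of the 55 belonged to the highest when all transcripts were divided into 4 equal groups by level. Summed, the 56 genes took 0.850% and 0.852% of the FPKM of the NC libraries and 0.757% and 0.804% of those of the KDM5_KD libraries. The first knockdown library carries 1 microRNA row of very high FPKM, and without microRNA rows the KDM5_KD shares were 0.809% and 0.804%.

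None of the 55 passed the threshold of 0.05 on the limma p adjusted across the whole table, whereas 0.279% of all transcripts did (0.19% higher and 0.0892% lower). The lowest adjusted p among them was 0.174. A p that misses the threshold does not show that the levels are the same, and with 2 libraries per group an exact permutation test of a single gene cannot go below 0.333. At an unadjusted limma p under 0.05 there were 6: RANBP1, IPO8, KPNA7, KPNA2 and KPNB1 were higher in KDM5_KD and KPNA6 was lower, against 17.5% of all transcripts (14.3% higher and 3.12% lower). This count of 6 was 5 without NC replicate 1 and 1 without each of the other libraries in turn. Both knockdown libraries lay above both NC libraries for 9 of the 55, where 35.1% of all transcripts did so. They lay below both for 16 of the 55, where 15.6% of all transcripts did so. These shares depended on level. In the highest of the 4 level groups, 21.4% of 28 transport genes lay above and 28.6% below, against 21.0% and 24.5% of all transcripts there. In the next group, 9.52% of 21 lay above and 33.3% below, against 30.8% and 17.6%. After median-ratio scaling the counts over the 55 were 5 above and 34 below, where 25.9% and 25.4% of all transcripts did so. After quantile normalization they were 7 above and 27 below, where 20.9% and 28.1% did so. Without KDM5_KD replicate 2, the library with the doubtful treatment entry, 14 were above and 23 below (45.0% and 25.9% of all transcripts). Without NC replicate 1 there were 16 above and 33 below (49.2% and 28.9% of all), and without NC replicate 2 there were 18 above and 24 below (50.02% and 26.9% of all). No gene reached 1 on the log2 scale in either direction, as 432 of all 8970 transcripts did, and 3 (5.45%) reached 0.5, against 18.6% of all. In the highest level group 7.14% of the transport genes and 8.20% of all transcripts reached 0.5. In the next group no transport gene did, against 13.6% of all.

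Most of the differences were negative. The median log2 fold change of the 55 was -0.09, against 0.09 for all transcripts, and 34.5% of them were positive, against 62.6% of all. Between replicates of a group, the median level of the 55 varied with an SD of 0.08 on the log2 scale. Without NC replicate 2 the median log2 fold change of the 55 was -0.04 (0.10 for all transcripts), and 31 of the 55 were negative. Transcripts of high level were positive less often in the table as a whole, so the same counts were made by level. In the highest group 39.3% of the 28 transport genes were positive, against 46.6% of all transcripts there. In the next group 28.6% of 21 transport genes were positive, against 58.8% of all. Scaling changed the share of genes that were negative: 36 of the 55 were negative as deposited, 47 after median-ratio scaling and 42 after quantile normalization, and these scalings shifted the whole table's median by -0.10 and -0.14. Measured from the whole table's median, that of the 55 was -0.19 as deposited, -0.19 after median-ratio scaling and -0.12 after quantile normalization.

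**Figure D1:**
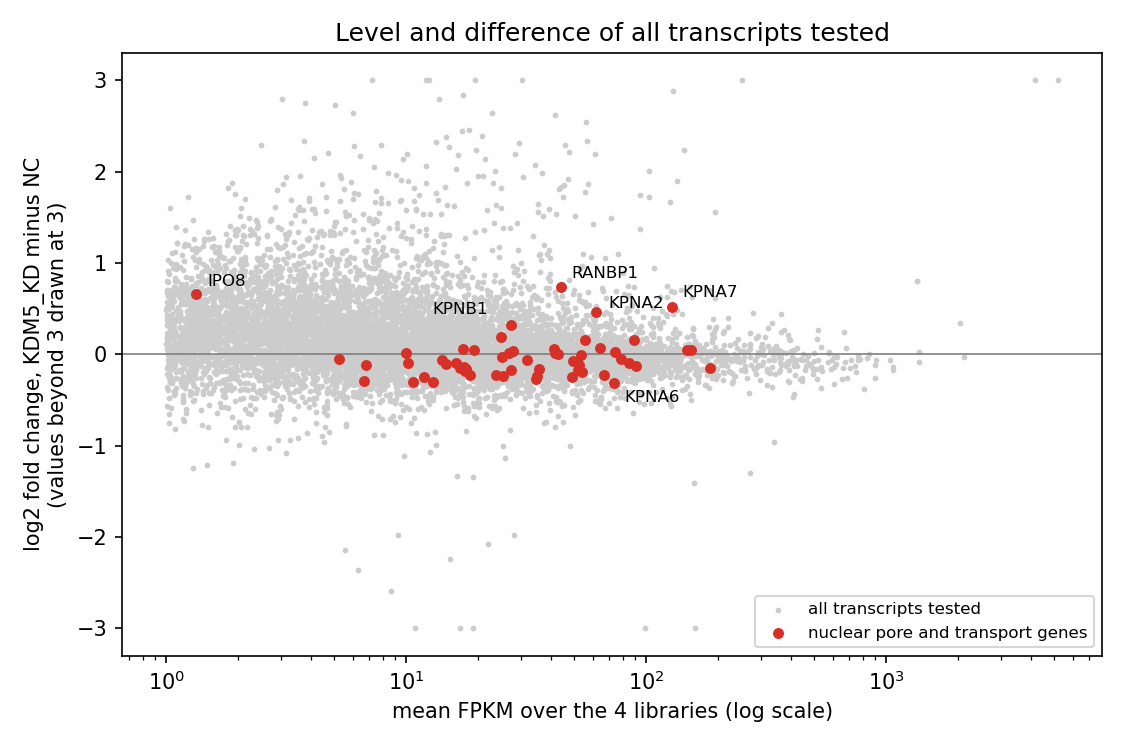
Mean FPKM over the 4 libraries (log axis) against the log2 fold change (KDM5_KD minus NC, on log2(FPKM + 1)) for the 8970 transcripts tested (grey) and the 55 nuclear pore and transport genes (red); values beyond 3 are drawn at 3. The 55 lie between -0.32 and 0.74, and RANBP1, IPO8 and KPNA7 are the highest of them.

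Of the 6 importin alpha adaptors, which bind the classical localization signal, 3 had a positive and 3 a negative log2 fold change. The unadjusted limma p was under 0.05 for 3 of them (KPNA7, KPNA2 and KPNA6). That held for 17.5% of all transcripts and for 13.4% of those in the highest level group. KPNA7 was the highest of the 6 in every library. It was at 110 and 99.3 FPKM in the controls and 126 and 179 FPKM in the knockdown, 1.45 times the NC mean. Both knockdown libraries were above both controls, but they differed more from each other than the first differed from NC. The log2 fold change was 0.52 (SE 0.184, adjusted p in limma of 0.243). It was 0.27 without KDM5_KD replicate 2 and 0.77 without KDM5_KD replicate 1. The summed oocyte and maternal-store markers followed the same order over the 4 libraries as KPNA7, and KPNA2 followed that order too. The part of these markers in either difference was not tested.

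KPNA2, an importin alpha that is abundant in proliferating cells, was at 55.9 and 48.1 FPKM in the controls and 70.5 and 72.8 FPKM in the knockdown. The knockdown libraries agreed closely and both lay above the controls. Its log2 fold change was 0.46 (SE 0.129), and its limma adjusted p of 0.174 was the lowest among the 55 genes. KPNA6 went the other way, at 75.9 and 87.0 FPKM in the controls and 62.1 and 68.0 FPKM in the knockdown, or 79.9% of the NC mean. Its groups did not overlap, and its log2 fold change was -0.32 (SE 0.129, adjusted p in limma of 0.284). KPNA4 was at 53.5 and 51.3 FPKM in the controls and 64.1 and 53.6 FPKM in the knockdown. Its second knockdown library was level with the first control, and the log2 fold change was 0.16 (SE 0.136, adjusted p in limma of 0.6).

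KPNA3 and KPNA1 were the lowest adaptors, with means over all libraries of 17.7 and 14.7 FPKM, and their groups overlapped. In NC the order of mean FPKM was KPNA7, KPNA6, KPNA4 and KPNA2, KPNA3, KPNA1, with KPNA4 and KPNA2 (52.4 and 52.0 FPKM) not separated beyond their spread. In KDM5_KD, KPNA2 (71.7 ± 1.62 FPKM, SD, n = 2) stood above KPNA6 (65.1 ± 4.12 FPKM, SD, n = 2). As a share of the summed importin alpha FPKM, KPNA7 made up 33.5% and 31.0% in NC and 35.4% and 44.5% in KDM5_KD. KPNA6 made up 23.0% and 27.2% in NC and 17.5% and 16.9% in KDM5_KD.

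**Figure D2:**
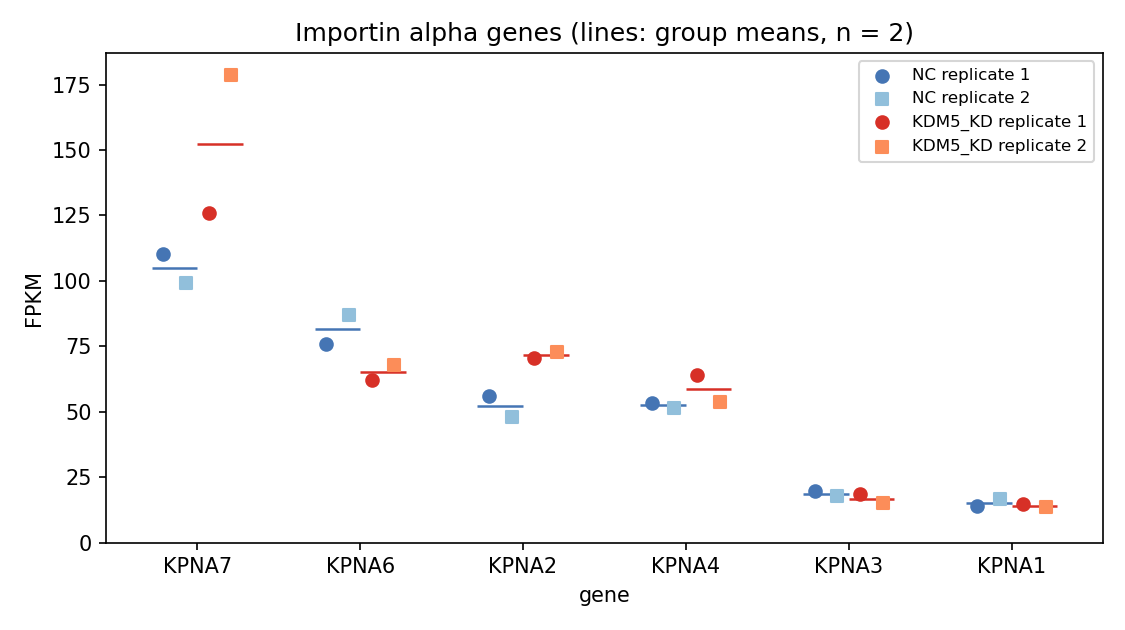
FPKM of the 6 importin alpha genes in each library (points) with the mean of each group of 2 libraries (lines). KPNA7 and KPNA2 are above the controls in both knockdown libraries, KPNA6 is below in both, and KPNA3 and KPNA1 overlap.

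Among the 10 importin beta proteins, which dock at the pore and carry cargo, 4 had a positive and 6 a negative log2 fold change, and 1 of the positive ones, IPO13, turned negative after either scaling. KPNB1, the importin beta that partners importin alpha, was at 23.9 and 24.6 FPKM in the controls and 30.3 and 30.9 FPKM in the knockdown. The replicates of each group were within 0.04 of each other on the log2 scale, and the groups were apart by 0.32 (SE 0.127, adjusted p in limma of 0.274). IPO7, whose cargoes include ribosomal proteins, was at 22.4 and 24.1 FPKM in the controls and 29.0 and 24.4 FPKM in the knockdown, so its groups were barely apart (log2 fold change 0.19, SE 0.149, adjusted p in limma of 0.569). IPO8, a close relative of IPO7, was the least expressed gene tested, at 0.912 and 0.713 FPKM in the controls and 1.87 and 1.85 FPKM in the knockdown. That is 2.29 times the NC mean, the highest ratio of means among the 55. Its log2 fold change was 0.66 (SE 0.202, adjusted p in limma of 0.195), and 1.11 with a pseudocount of 0.1 in place of 1.

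IPO5, a carrier of ribosomal proteins and histones, had the highest mean of these carriers over the 4 libraries, though TNPO3 was higher in the first knockdown library. IPO5 was at 50.6 and 59.7 FPKM in the controls and 46.4 and 50.7 FPKM in the knockdown, with groups that overlapped (log2 fold change -0.18, SE 0.138). IPO4, a histone importer, was at 17.0 and 20.4 FPKM in the controls and 16.0 and 16.7 FPKM in the knockdown. TNPO1, the transportin that imports RNA-binding proteins, was at 35.8 and 39.7 FPKM in the controls and 32.6 and 34.8 FPKM in the knockdown. For both, the knockdown libraries lay just below the controls, with log2 fold changes of -0.18 and -0.16, and adjusted p in limma of 0.607 and 0.582. TNPO3, an importer of serine/arginine-rich splicing factors, TNPO2, IPO13 and IPO11 had means over all libraries of 49.7, 43.1, 17.2 and 5.22 FPKM. Their groups overlapped, and their log2 fold changes lay between -0.07 and 0.06.

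Of the 5 exportins, 2 had groups that overlapped, and 3 lay below both controls in both knockdown libraries. Below both controls lay 15.6% of all transcripts, and 17.6% in the second highest level group, where these 3 exportins stood. XPO1, the exporter of proteins with leucine-rich export signals, had the highest level of the 5, at 38.0 and 43.2 FPKM in the controls and 43.3 and 41.0 FPKM in the knockdown. XPOT, the tRNA exporter, was at 9.60 and 10.3 FPKM in the controls and 10.05 and 10.01 FPKM in the knockdown. The groups of both overlapped. XPO4 was at 13.5 and 15.3 FPKM in the controls and 11.7 and 11.2 FPKM in the knockdown, and XPO7 at 10.9 and 12.9 FPKM and at 9.38 and 9.54 FPKM. Both stood at about the same fraction of the controls, 79.7% and 79.4%, with log2 fold changes of -0.30 (SE 0.159) and -0.30 (SE 0.171) and adjusted p in limma of 0.390 and 0.421. CSE1L, which returns importin alpha to the cytoplasm, was at 27.4 and 30.4 FPKM in the controls and 25.7 and 25.4 FPKM in the knockdown (log2 fold change -0.17, SE 0.134, adjusted p in limma of 0.565).

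RAN, the GTPase itself, had the highest mean FPKM of all 56 genes, at 207 and 181 FPKM in the controls and 183 and 166 FPKM in the knockdown. The first knockdown library fell between the controls, and the log2 fold change was -0.15 (SE 0.125, adjusted p in limma of 0.585). Of the 6 Ran-system genes, 5 had negative and 1 had a positive log2 fold change. The positive one was RANBP1, the cytoplasmic co-activator of GTP hydrolysis on Ran. RANBP1 was at 37.3 and 27.9 FPKM in the controls and 66.7 and 44.6 FPKM in the knockdown, 1.71 times the NC mean. Both knockdown libraries lay above the controls, with a wide gap inside each group. Its log2 fold change of 0.74 (SE 0.233, adjusted p in limma of 0.204) was the highest of the 55, and it ranged from 0.45 to 1.03 when single libraries were left out. The summed cumulus and granulosa markers followed the same order over the 4 libraries as RANBP1. That order was also the order of IPO8, KPNA4 and NUP153. The part of these markers in the differences was not tested. In the RefSeq gene table RANBP1 overlaps TRMT2A and a small nucleolar RNA, and reads from overlapping genes may be counted together here. The same holds for other genes that overlap protein-coding genes. These are NUP62 (ATF5 and IL4I1), RANGAP1 (ZC3H7B), RANBP3 (CAPS), TPR (PRG4), IPO11 (LRRC70) and XPOT (C5H12orf56). It also holds for IPO8, NUP42 and RAE1, which overlap long noncoding RNA genes, and for XPO4, NUP37, KPNA3 and NUP133, which overlap pseudogenes.

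The other regulators of Ran had negative log2 fold changes. RANGAP1, which stimulates GTP hydrolysis on Ran, was at 57.6 and 49.2 FPKM in the controls and 47.3 and 42.2 FPKM in the knockdown (log2 fold change -0.25, SE 0.14, adjusted p in limma of 0.419). RANBP3, a nuclear cofactor of XPO1, was at 71.1 and 72.8 FPKM in the controls and 62.6 and 60.3 FPKM in the knockdown (log2 fold change -0.22, SE 0.113, adjusted p in limma of 0.373). NUTF2, the carrier that brings Ran back into the nucleus, was at 96.9 and 92.9 FPKM in the controls and 89.0 and 84.6 FPKM in the knockdown. The knockdown libraries of these 3 genes lay below both controls, as did those of 15.6% of all transcripts and 24.5% in the highest level group. RCC1, the exchange factor of Ran, was at 28.8 and 22.5 FPKM in the controls and 23.5 and 19.9 FPKM in the knockdown, and its groups overlapped.

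**Figure D3:**
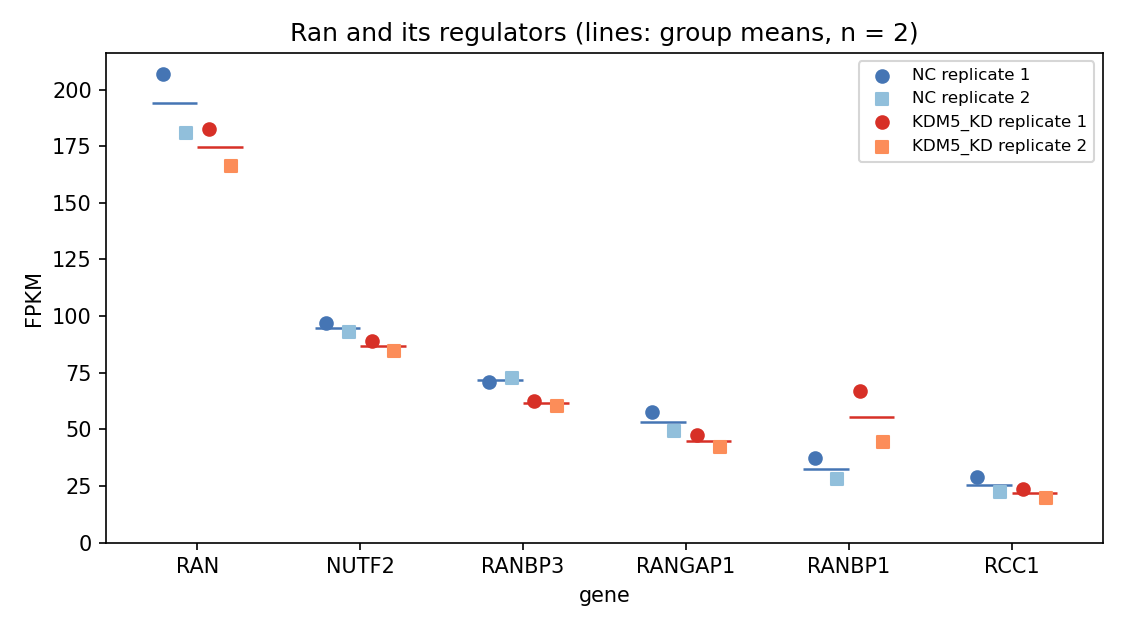
FPKM of RAN and 5 genes that regulate or carry it in each library (points) with the mean of each group of 2 libraries (lines). RANBP1 is above the controls in both knockdown libraries, RANGAP1, RANBP3 and NUTF2 are below in both, and RAN and RCC1 overlap.

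The structural genes of the pore were close between the groups. Of 24 nucleoporin and pore-associated genes tested, 7 had a positive and 17 a negative log2 fold change, and after median-ratio scaling 6 of the 7 were negative too. Their median was -0.08, and they ranged from -0.29 to 0.16. None had an unadjusted limma p under 0.05, against 17.5% of all transcripts (13.4% in the highest level group and 15.5% in the next). The lowest limma adjusted p was 0.379. All 7 Y complex genes of the outer ring analysed here had a negative log2 fold change, from -0.29 to -0.01. Of all transcripts 62.6% were positive, with 46.6% in the highest level group and 58.8% in the next. The sign of 4 of the 7, SEH1L included, turned when 1 library was left out. NUP85 was at 35.5 and 40.3 FPKM in the controls and 32.6 and 30.1 FPKM in the knockdown (log2 fold change -0.26, SE 0.136). NUP37 was at 6.35 and 8.56 FPKM in the controls and 5.63 and 6.12 FPKM in the knockdown (log2 fold change -0.29, SE 0.208), and NUP43 was at 16.8 and 18.5 FPKM in the controls and 15.6 and 16.1 FPKM in the knockdown. These 3 lay below both controls, as did 15.6% of all transcripts (24.5% in the highest level group and 17.6% in the next). SEH1L, the highest of the outer ring with a mean of 78.3 FPKM, overlapped.

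In the inner ring all 5 genes overlapped between groups. NUP35 had the highest level, at 40.8 and 42.1 FPKM in the controls and 42.8 and 41.1 FPKM in the knockdown. In the central channel, NUP62 varied more within the controls (172 and 120 FPKM) than between groups (154 and 143 FPKM in KDM5_KD), and NUP58 and NUP54 also overlapped. On the cytoplasmic side, NUP42 had the highest mean over all 4 libraries, though RAE1 was higher in the second control. NUP42 was at 88.0 and 79.8 FPKM in the controls and 104 and 84.5 FPKM in the knockdown. NUP214, at the docking site for export factors, was at 12.1 and 13.7 FPKM in the controls and 9.99 and 11.5 FPKM in the knockdown (log2 fold change -0.25, SE 0.170, adjusted p in limma of 0.510). RANBP2, the large filament protein that binds RANGAP1, was at 54.1 and 61.3 FPKM in the controls and 49.6 and 51.1 FPKM in the knockdown, and RAE1, which binds mRNA at the pore, at 87.8 and 86.9 FPKM and at 83.0 and 80.1 FPKM. NUP214, RANBP2 and RAE1 lay below both controls in both knockdown libraries. That held for 15.6% of all transcripts (24.5% in the highest level group and 17.6% in the next).

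The nuclear basket was the only pore subcomplex in which all genes tested had a positive log2 fold change as deposited, and all 3 turned negative after median-ratio scaling. NUP50 was at 150.2 and 151 FPKM in the controls and 161 and 152 FPKM in the knockdown, and NUP153 at 64.2 and 61.3 FPKM and at 66.5 and 65.0 FPKM. For both, the knockdown libraries were just above the controls, by 0.05 (SE 0.108) and 0.07 (SE 0.114) on the log2 scale. TPR, the filament protein of the basket, was at 17.0 and 20.6 FPKM in the controls and 19.9 and 18.7 FPKM in the knockdown, and overlapped.

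For mRNA export, NXF1 was at 34.8 and 41.4 FPKM in the controls and 35.0 and 29.5 FPKM in the knockdown. Its cofactors were at 29.1 and 24.4 FPKM (NXT1) and 20.4 and 35.4 FPKM (NXT2) in NC, and at 26.8 and 27.1 FPKM and 25.2 and 30.3 FPKM in KDM5_KD. All 3 overlapped between groups. RANBP10, a Ran-binding protein of a ubiquitin ligase complex rather than a transport receptor, was at 27.3 and 27.3 FPKM in the controls and 24.03 and 22.2 FPKM in the knockdown (log2 fold change -0.24, SE 0.133, adjusted p in limma of 0.418).

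**Figure D4:**
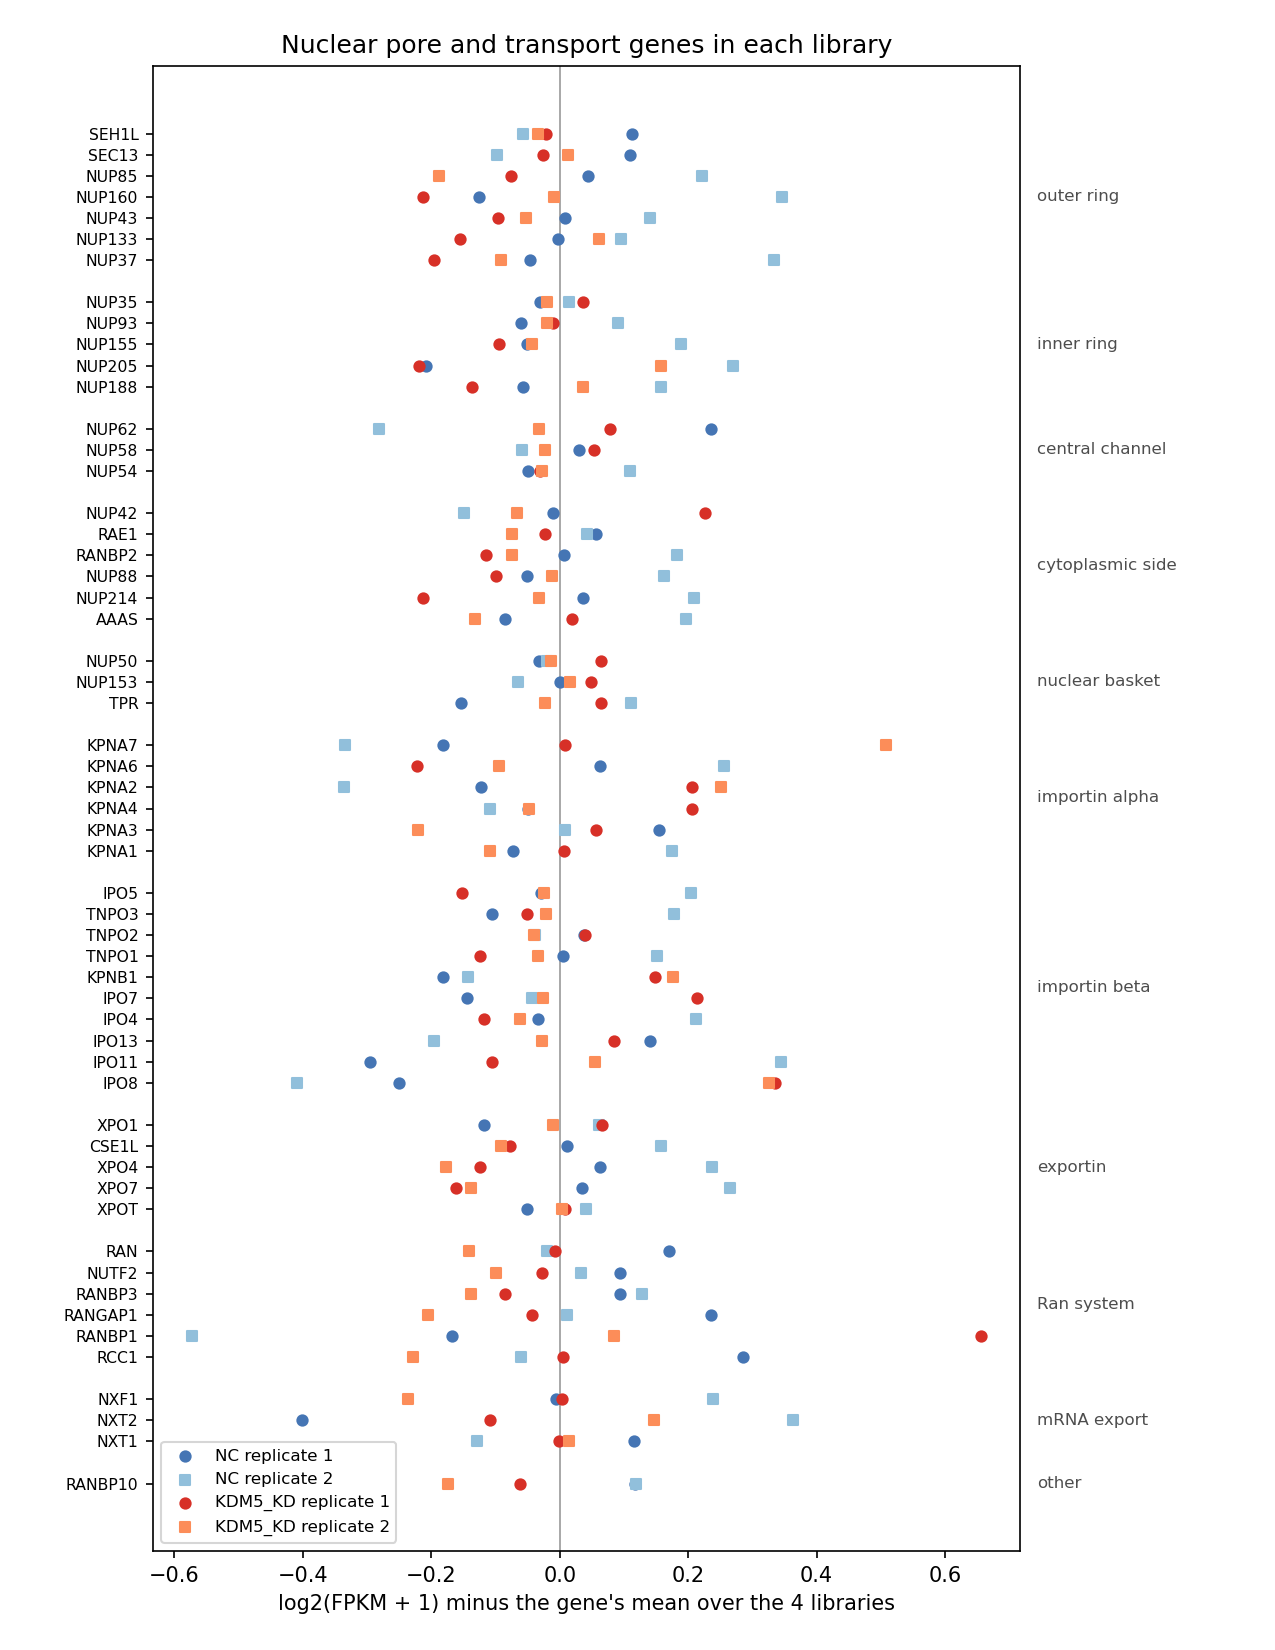
log2(FPKM + 1) of each of the 55 genes in each library (points), relative to the gene's mean over the 4 libraries, grouped by role. RANBP1, KPNA7, KPNA2, KPNB1 and IPO8 have both knockdown libraries (red, orange) to the right of both controls (blue), and NC replicate 2 lies farthest to the right for many of the genes with negative differences.

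**Figure D5:**
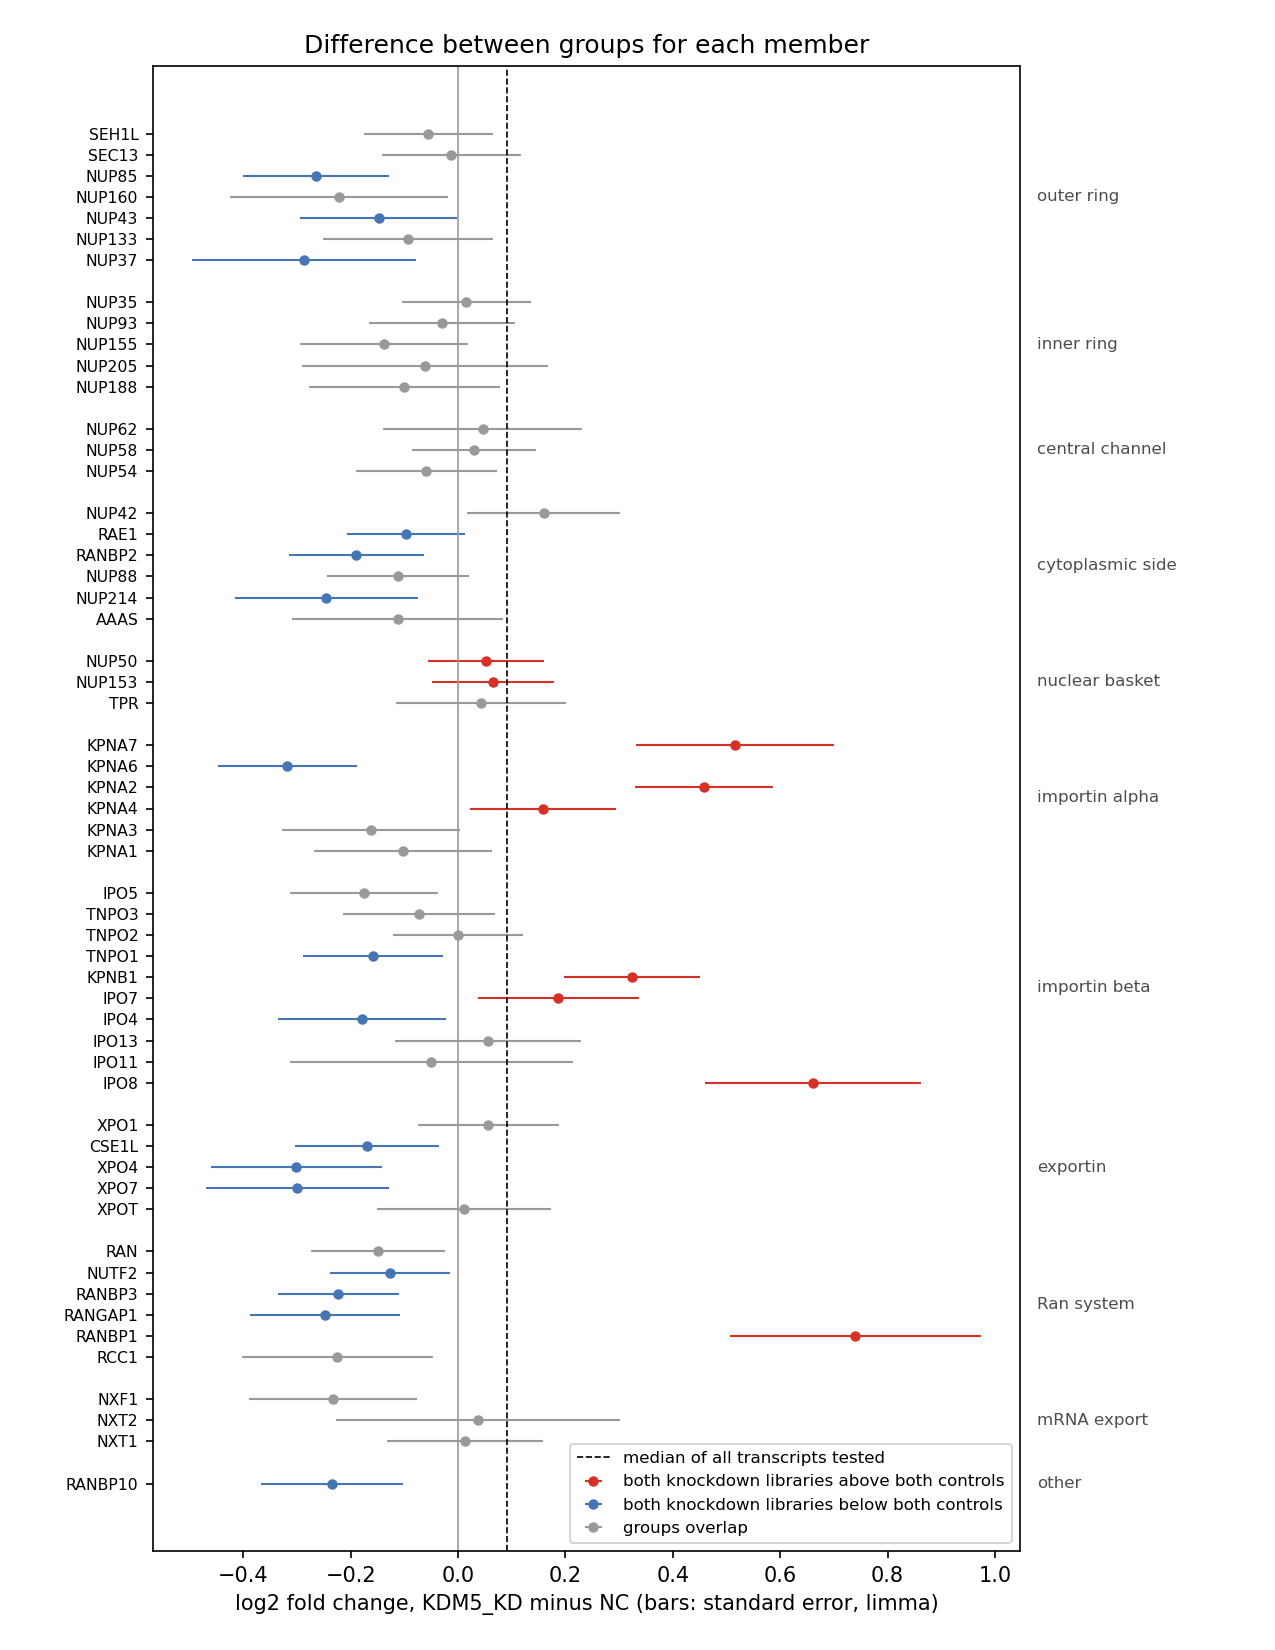
Log2 fold change (KDM5_KD minus NC) of each of the 55 genes with its limma standard error (bars), coloured by whether the libraries of the groups overlap. The dashed line is the median of all transcripts tested (0.09), and 36 of the 55 genes lie below 0.

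A list of 51 other genes of the nuclear envelope and of RNA export (lamins, LINC proteins, THO and TREX subunits, cap-binding proteins, SUMO enzymes) had 44 rows, of which 43 were tested. None passed the limma adjusted threshold. At an unadjusted limma p under 0.05, 4 were higher and 2 lower, against 14.3% and 3.12% of all transcripts. Both knockdown libraries lay above the controls for 10 (23.3%) and below for 9 (20.9%), against 35.1% and 15.6% of all transcripts, and the median log2 fold change was -0.03, against 0.09 for all transcripts. The lowest were LMNB2, a B-type lamin, at 49.2 and 54.9 FPKM in the controls and 38.9 and 39.5 FPKM in the knockdown (log2 fold change -0.40, adjusted p in limma of 0.202), and MCM3AP, the scaffold of an mRNA export complex, at 30.6 and 29.1 FPKM and 23.9 and 23.1 FPKM (-0.33, adjusted p in limma of 0.271). The highest were HIKESHI, an importer of HSP70 proteins, at 1.99 and 2.06 FPKM in the controls and 3.21 and 4.55 FPKM in the knockdown (0.68, adjusted p in limma of 0.215), and SUN2, a LINC complex protein of the inner nuclear membrane, at 7.45 and 5.91 FPKM and 9.20 and 10.6 FPKM (0.51, adjusted p in limma of 0.266).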

How the data were processed

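The deposited table gives 1 FPKM value per RefSeq transcript and library, made by the authors. Per the submitters' processing notes, Trimmomatic, HISAT2, featureCounts and Cufflinks were used. Versions, genome build and annotation are not given in the sources used here, so no positions are printed. Accessions were matched without their version to a RefSeq gene table (ARS-UCD2.0), which named 14295 of 14517 rows. Of 70 symbols in that table that meet the rule, 14 were not analysed here. Of the 56 genes, 22 overlap another gene in it, and strand-specific counting is not stated. Columns were assigned by sample title, and all 4 were used. The smallest value above 0 is 4.83e-141, so FPKM are estimates, and read counts are unknown.

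The 8970 transcripts with a mean of at least 1 FPKM were fitted together as log2(FPKM + 1) with limma 3.58.1 (R 4.3.3), eBayes with a mean-variance trend and no covariates, and p-values were adjusted by Benjamini-Hochberg over all of them. Fold changes on this scale understate those of low genes. The procedure was tested on simulated data. Genes, lists and roles were chosen with earlier results of these data known. Genes named in detail were, in each direction, the 8 with the largest difference among those at 5 FPKM or more with non-overlapping groups, the highest of each role, and whole families. RANBP2, RANBP3, NUTF2, RCC1, CSE1L, RAE1, TPR and NUP43 were added after their values were seen. Alternatives were a pseudocount of 0.1, no filter (rows at 0 in every library left out), a mean of 5 FPKM, 2 scalings, no trend, the replicate number as a block and leaving out each library. Plots used Python 3.11.15 and matplotlib 3.10.9.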

Additional observations from a re-analysis of the deposited data

How the results depend on the processing

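No nuclear pore or transport gene passed the threshold in any of the 11 alternatives, and the lowest limma adjusted p of any of them was 0.0966. Of the 55 genes, 31 kept their sign in all 11 (8 positive, 23 negative) and 24 did not. The median log2 fold change of -0.09 was -0.20 after median-ratio scaling. With 1 library left out it lay between -0.14 (without NC replicate 1) and -0.04 (without NC replicate 2). Genes with both knockdown libraries above the controls numbered 5 after median-ratio scaling (25.9% of all transcripts). With 1 library left out they numbered 9 (without KDM5_KD replicate 1, 49.9% of all) to 18 (without NC replicate 2, 50.02% of all). Those below numbered 34 after median-ratio scaling (25.4% of all) and 27 after quantile normalization (28.1% of all). With 1 library left out, where fewer libraries make overlap rarer, those below numbered 23 to 33. The 23 came without KDM5_KD replicate 1 (25.4% of all) or KDM5_KD replicate 2 (25.9% of all), and the 33 without NC replicate 1 (28.9% of all).

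Among genes named in detail, median-ratio scaling reversed NUP153 (-0.045), NUP50 (-0.060), NUP62 (-0.065), NUP35 (-0.094), XPO1 (-0.053), IPO13 (-0.050), XPOT (-0.091), NXT2 (-0.071), NXT1 (-0.096) and TPR (-0.064). Quantile normalization reversed NUP35 (-0.038), IPO13 (-0.044), XPOT (-0.17), NXT2 (-0.025), NXT1 (-0.053) and TPR (-0.046). With 1 library left out, log2 fold changes of genes named in detail crossed 0 for SEH1L (-0.14 to 0.030), NUP35 (-0.013 to 0.044), NUP62 (-0.21 to 0.30), TPR (-0.090 to 0.17), XPO1 (-0.034 to 0.15), XPOT (-0.035 to 0.057), KPNA1 (-0.23 to 0.022), TNPO2 (-0.041 to 0.040), TNPO3 (-0.21 to 0.070), IPO11 (-0.37 to 0.27), IPO13 (-0.11 to 0.22), NXT1 (-0.11 to 0.13), NXT2 (-0.34 to 0.42) and KDM6A (-0.37 to 0.15).

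Over all transcripts, 17 were higher and 8 lower. No filter gave 2 and 1, a mean of 5 FPKM gave 11 higher, and no trend gave 6 higher. Leaving out a library gave 3 (without KDM5_KD replicate 2) to 323 (without NC replicate 1) higher and 3 to 17 lower, with the lone library of a group assumed to vary like the other group. KDM5A stayed at -1.35 but missed the threshold with no filter (limma adjusted p of 0.167) and with no trend (0.0605). With 1 library left out KDM5A lay between -1.38 and -1.32 and KDM5C between -1.26 and -0.74. KDM5A missed the threshold without NC replicate 2 and without either knockdown library, and KDM5C passed without NC replicate 1. The replicate numbers are shared by title only: deviations of same-numbered libraries correlated at 0.229. With the replicate number as a block 8 transcripts were higher and 4 lower, KDM5A had -1.35 (limma adjusted p of 0.0591), and no transport gene passed. The causes of these changes were not tested. Read depth is unknown, so what it limits cannot be stated per gene.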
